A study of Mus musculus with 14 samples.

Results

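In 3 white nodules, the expanded B cells carried a commonest and a second heavy-chain CDR3 built from the same V and J genes. The nodules came from mice bred for deletion of Eif3e in activated B cells. Cells that held one or the other CDR3 were set side by side within each nodule. A heavy key stands here for 1 set of V gene, J gene and CDR3 bases on an assembled heavy-chain contig, and keys were ranked by the number of cell barcodes that held them. The nodules were chosen by these contig counts: the second key had to share the V and J gene of the first and to reach at least 50 barcodes. Side 1 is made of barcodes with the first key and not the second, side 2 of barcodes with the second key and not the first, and both had to be in the RNA matrix with at most 10% of their unique molecular identifiers (UMIs, which count RNA molecules) from mitochondrial genes. This gave 2397 cells of the 2875 barcodes with a heavy contig in these nodules, of 6611 such barcodes in 5 nodules with BCR libraries and of 77442 RNA barcodes in 7 nodules. Mouse 27 had 783 cells on side 1 and 351 on side 2, mouse 33 had 271 and 100, and mouse 34 had 738 and 154. Just inside the limit, the second key of mouse 33 was on 101 barcodes. Just outside, the second key of mouse 31 was on 27 barcodes with the V and J gene of its first key, and that of mouse 29 was on 3 barcodes with another V gene. The keys chose the cells, so the key counts are a description and were not tested.

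B cells join V, D and J segments once during their development, and the joint, the CDR3, is the most variable stretch of the heavy chain and usually the centre of the antigen-binding site. In germinal centres point mutations, and at times short insertions or deletions, are then introduced into the heavy and light V regions of a clone, so that its descendants form branches that share a V-D-J joint. In class switching the same V region is joined to another constant gene such as that of IgA or IgE.

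All 3 mice were listed as Eif3e fl/fl with Cγ1Cre, a Cre recombinase that is switched on with transcription of the immunoglobulin γ1 constant gene in activated B cells. Eif3e encodes 1 of the subunits of eIF3, a complex that starts translation. Mouse 27 was 12 months old and gave a liver nodule, which the study describes as a secondary tumor grown in a Rag2-/- recipient, an animal without mature B and T cells of its own. Mouse 33 was 16 months old and gave a thymus nodule. Mouse 34 was 9 months old, also carried Rosa26-YFP and gave nodules of lung and thymus in 1 library. That library is called 1 nodule here. The labels do not give the organ of a cell, so whether the sides of mouse 34 differ in organ was not tested. The animal list of the study also enters mouse 34 with the words mix and BMR, which were not resolved here. Nodules held all cells left after removal of dead cells, with no sort for B cells, and there is no library of B cells from a healthy mouse among those compared here.

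The study reports that tumor B cells, primary and secondary, lacked YFP, its reporter of Cre activity, and had normal amounts of eIF3e protein. Eif3e RNA was present on every side. Its level, as CPM (the UMIs of a gene over the summed cells of a side, scaled to the same total on every side), was 231 on side 1 and 223 on side 2 of mouse 27. Mouse 33 had 240 and 193 CPM, and mouse 34 had 194 and 174 CPM. Cd79a, which encodes a signalling chain of the B cell receptor and marks B cells, was on both sides of each nodule, at 1028 and 1065 CPM in mouse 27, at 263 and 311 CPM in mouse 33 and at 1151 and 966 CPM in mouse 34. The 3 RNA libraries held 7505 to 10066 barcodes, and the cells of a side had a median of 8714 to 15270 UMIs, with side 2 below side 1 in each nodule (8714 against 9950, 14011 against 15270 and 9733 against 11309). Pairs of RNA libraries shared 96 to 119 barcodes, of which 1 was a side cell in both libraries. Each side of a nodule is 1 sample, so ratios and shares within a nodule carry 95% intervals of counting error (Clopper-Pearson) and no test. In summed cells, fewer expressing cells and less RNA per cell cannot be told apart, and the share of cells with a UMI is given beside the levels that matter.

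The CDR3 sequences differed between the sides by 1 base in mouse 27, by a 3-base gap in mouse 33 and by 3 bases in mouse 34. They are shown because they define the sides, with capitals at the bases that differ from the other key, or, in the key ranked 3 in mouse 34, from the first.
Mouse 27, IGHV1-75 and IGHJ1, first key: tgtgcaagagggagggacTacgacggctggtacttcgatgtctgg
Mouse 27, second key: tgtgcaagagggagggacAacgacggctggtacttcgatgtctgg
Mouse 33, IGHV9-3 and IGHJ3, first key: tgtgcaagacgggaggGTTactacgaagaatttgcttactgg
Mouse 33, second key: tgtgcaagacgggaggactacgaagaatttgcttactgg
Mouse 34, IGHV9-1 and IGHJ2, first key: tgtactagagaGgAtgActattgg
Mouse 34, second key: tgtactagagaAgTtgCctattgg
Mouse 34, key ranked 3: tgtactagagaggTtgactattgg
Counted from 1 at the first base of the CDR3, the change in mouse 27 was T19A, which replaces residue Y7N in a CDR3 of 15 residues. In mouse 33 the first key had 42 bases and the second 39 with no mismatch in the aligned bases, so the reading frame was kept and 14 residues stood against 13. In mouse 34 the changes were G12A, A14T and A17C, which replace D5V and D6A in a CDR3 of 8 residues. The key ranked 3 in mouse 34 had A14T alone and was on 45 barcodes. That of mouse 33 was on 31 barcodes and differed from the first by C21T, which changes no residue.

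Outside the CDR3 the commonest sequence was the same on both sides of mouse 27, differed at 2 bases in mouse 33 and at 11 in mouse 34, and the shares of single bases differed in all 3 nodules. The V region and the bases after the CDR3 were compared per cell with the commonest side-1 sequence, over 316 bases counted from 1 at the first base of framework 1 with the CDR3 left out. No germline sequence of these mice was used, so a difference says nothing of which base came first. In mouse 27 the commonest sequence was the same on both sides, in 62.6% of side-1 cells (490 of 783) and 64.7% of side-2 cells (227 of 351). C83T was in 11.1% of side-1 cells (interval 9.00 to 13.5%) and 28.5% of side-2 cells (23.8 to 33.5%), C10G in 6.26% and 18.5%, and A239C in 6% (47 cells) and in 0 of 351.

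In mouse 33 the commonest sequences of the sides differed at 2 bases. G171A, in CDR2, was in 8.49% of side-1 cells (interval 5.46 to 12.5%) and 89.0% of side-2 cells (81.2 to 94.4%), and C182T, in framework 3, was in 5.54% and 67.0%. T274G went the other way, with 53.5% on side 1 and 12.0% on side 2. The stretch from position 154 shows the bases at 171 and 182 in capitals.
Mouse 33, CDR2 and framework 3, side 1: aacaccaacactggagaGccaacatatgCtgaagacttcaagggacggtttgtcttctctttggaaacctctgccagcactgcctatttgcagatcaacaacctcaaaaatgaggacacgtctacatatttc
Mouse 33, CDR2 and framework 3, side 2: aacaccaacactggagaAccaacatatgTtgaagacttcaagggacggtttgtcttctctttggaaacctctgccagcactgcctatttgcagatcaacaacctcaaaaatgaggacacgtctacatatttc

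In mouse 34 the commonest sequences differed at 11 bases, and the sides hardly overlapped at the clearest of them. G30A was in 2.03% of side-1 cells (15 of 738) and 99.4% of side-2 cells (153 of 154), T276A in 0.813% and 97.4%, and T176C in 3.12% and 98.7%. Of side-1 cells, 95.3% had the commonest sequence exactly and 22 distinct sequences were seen among 738 cells, whereas side 2 had 35 distinct sequences among 154 cells and 44.2% with its commonest. A253G was in 0.407% of side 1 and 31.2% of side 2. The capitals mark the 3 and 8 bases by which the sides differ in the stretches from positions 1 and 154.
Mouse 34, framework 1 and CDR1, side 1: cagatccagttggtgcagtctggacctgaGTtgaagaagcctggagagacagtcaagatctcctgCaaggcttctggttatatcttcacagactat
Mouse 34, framework 1 and CDR1, side 2: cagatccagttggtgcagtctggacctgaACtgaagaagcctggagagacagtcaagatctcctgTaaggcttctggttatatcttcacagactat
Mouse 34, CDR2 and framework 3, side 1: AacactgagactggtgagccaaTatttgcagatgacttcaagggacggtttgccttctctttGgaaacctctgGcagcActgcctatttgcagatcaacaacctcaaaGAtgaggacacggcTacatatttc
Mouse 34, CDR2 and framework 3, side 2: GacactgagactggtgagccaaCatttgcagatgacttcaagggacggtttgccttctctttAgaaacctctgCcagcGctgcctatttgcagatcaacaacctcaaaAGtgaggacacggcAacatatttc

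The sides of a nodule carried the same light-chain joint. IGKV3-12 with IGKJ4 was in every cell of both sides of mouse 27, and IGKV1-135 with IGKJ5 in every cell of both sides of mouse 34, each with 1 CDR3. In mouse 33, IGLV2 with IGLJ2 was in 96.3% of side 1 (261 of 271 cells) and 94.0% of side 2 (94 of 100), and in 99.6% and 100% of the cells that had any light contig. Light-chain bases outside the CDR3 were not used to choose the cells, and in mice 33 and 34 they divided along the sides. In mouse 33 T5C was in 22.6% of side-1 cells (59 of 261, interval 17.7 to 28.2%) and 96.8% of side-2 cells (91 of 94, 91.0 to 99.3%). In mouse 34 C10A was in 13.7% of side 1 (101 of 738, 11.3 to 16.4%) and 99.4% of side 2 (153 of 154, 96.4 to 100%), while A236C was in 18.6% of side 1 and in 0 of 154 side-2 cells (0 to 2.37%). In mouse 27 no light base differed at 5% of cells or more, and 99.5% of side 1 and 99.7% of side 2 had the commonest sequence. The start of framework 1 shows these bases in capitals, beside the light CDR3 that the sides share.
Mouse 33, light framework 1, side 1: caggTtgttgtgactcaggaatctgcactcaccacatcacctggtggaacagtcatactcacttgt
Mouse 33, light framework 1, side 2: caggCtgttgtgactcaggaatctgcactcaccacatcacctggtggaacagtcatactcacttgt
Mouse 33, light CDR3, both sides: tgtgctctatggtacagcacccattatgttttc
Mouse 34, light framework 1, side 1: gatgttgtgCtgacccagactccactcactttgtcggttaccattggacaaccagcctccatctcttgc
Mouse 34, light framework 1, side 2: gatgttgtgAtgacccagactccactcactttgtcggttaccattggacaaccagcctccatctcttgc
Mouse 34, light CDR3, both sides: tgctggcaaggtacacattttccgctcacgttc

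**Figure D1:**
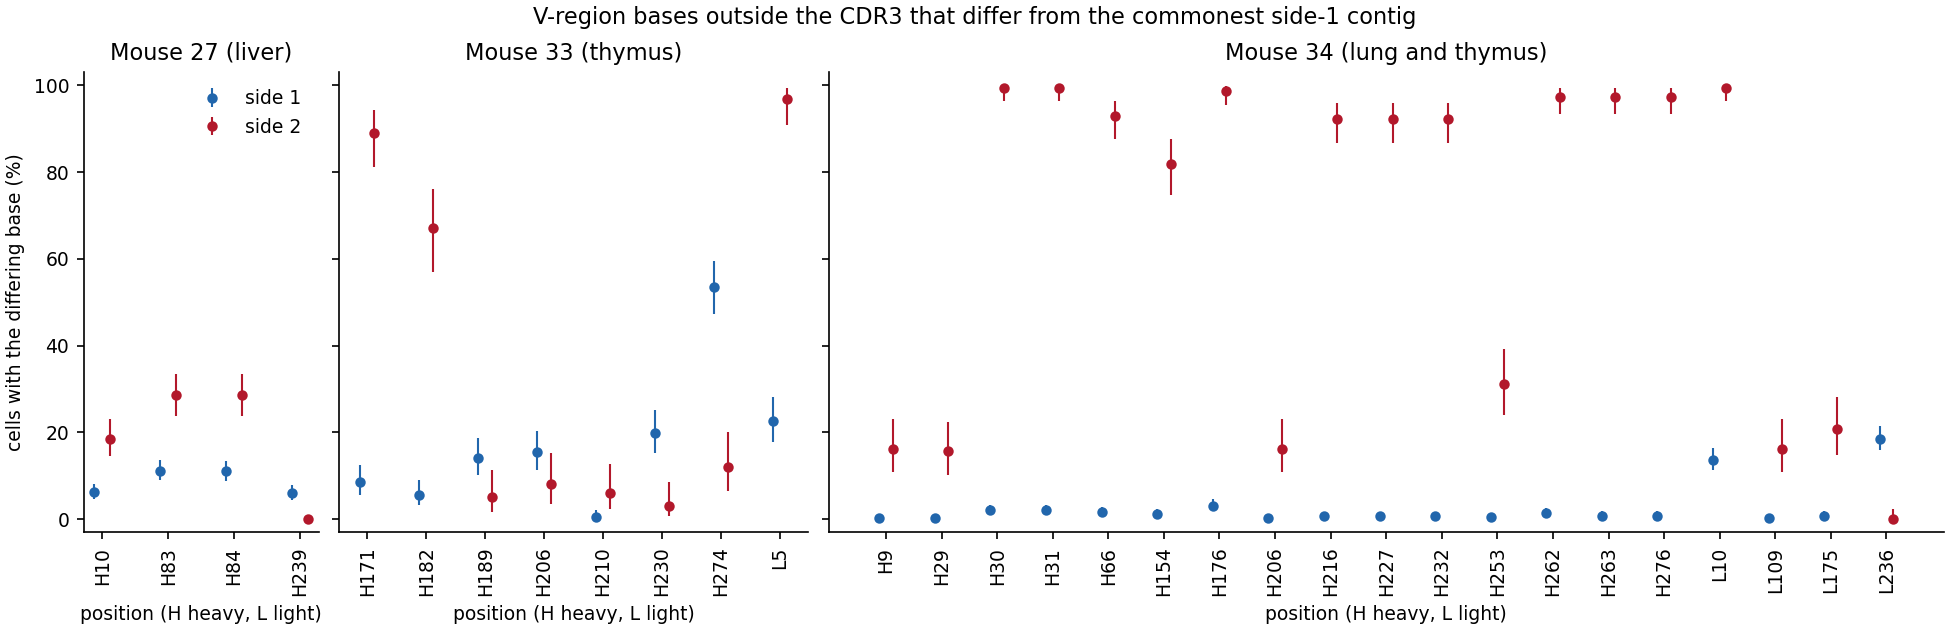
Share of cells (y axis, percent) of side 1 (blue) and side 2 (red) with a base that differs from the commonest side-1 contig, at each heavy (H) or light (L) position outside the CDR3 where at least 5% of cells of a side differ; bars are 95% Clopper-Pearson intervals. Side 2 is near 100% at heavy position 30 and light position 10 in mouse 34 and at light position 5 in mouse 33, and no position of mouse 27 passes 30%.

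Barcodes with both keys were not seen in mouse 27, and were rare in mouse 33 and common in mouse 34. Of the barcodes with the second key, 0 of 351 also held the first in mouse 27 (interval 0 to 1.05%, with 3 barcodes being 0.855%), and 1 of 101 did so in mouse 33. In mouse 34 it was 295 of 449 (65.7%, interval 61.1 to 70.1%), and 58.3% when only contigs of at least 3 UMIs were counted. These 295 barcodes belong to neither side and had a median of 13202 RNA UMIs, above the 11309 of side 1 and the 9733 of side 2. They were of 2 kinds. In 207 of them the second-key contig had exactly the commonest V region of side 1, with a median of 4 UMIs beside 23 on the first-key contig. In the other 88 the second-key contig had another V region, with a median of 20 UMIs beside 12 on the first-key contig and 14542 RNA UMIs in all. The part of doublets in these barcodes was not tested.

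The heavy constant calls and the constant-gene RNA did not follow the sides in the same way. In mouse 27, 98.6% of side-1 and 98.3% of side-2 contigs had no constant call, and all called ones were IGHA (11 and 6 cells). In mouse 34 every contig of both sides was called IGHA. In mouse 33 IGHE was called in 33.6% of side 1 (91 of 271, interval 28.0 to 39.5%) and in 10% of side 2 (10 of 100, 4.90 to 17.6%), and IGHA in 5.54% (3.13 to 8.97%) and 21.0% (13.5 to 30.3%). Among the cells with a call, IGHE made up 85.8% of 106 on side 1 and 31.3% of 32 on side 2.

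RNA of the constant genes showed no such difference in mouse 33. Ighe, the constant gene of IgE, was at 141 CPM on side 1 and 196 CPM on side 2, with a UMI in 86.0% and 86.0% of cells, and Igha, that of IgA, at 48.8 and 60.0 CPM. As a share of the heavy constant UMIs, Ighe made up 73.6% and 76.2%. In mouse 27 Ighe was at 466 CPM on both sides and Igha at 64.9 and 84.6 CPM, although no contig was called IGHE. In mouse 34 Igha was at 330 and 361 CPM and Ighe at 115 and 140 CPM. Ighm, Ighd and the 4 Ighg genes were at most at 2.18 CPM on any side. The summed heavy constant genes had ratios of side 2 over side 1 of 1.04 in mouse 27, 1.34 (1.19 to 1.51) in mouse 33 and 1.12 (1.04 to 1.21) in mouse 34. Light constant genes were level in mouse 27. In mouse 33, whose light contigs are lambda, Iglc2 was higher on side 2 (244 and 389 CPM) and Iglc3 on side 1 (105 and 21.4 CPM), with Iglc1 at 67.0 and 104 CPM and Igkc at 126 and 78.3 CPM. Iglc2 and Iglc3 are near-identical copies, so the split of reads between them is uncertain. In mouse 34 Iglc3 was at 337 and 519 CPM, while Igkc, the constant gene of its clonal light chain, was not past 1.5-fold.

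The sides had almost the same expression in mouse 27 and clearly different expression in mice 33 and 34. A gene was counted as past 1.5-fold when its mean CPM over both sides was at least 50 and the CPM ratio reached 1.5. This held for 5 of 3505 genes in mouse 27 (0.143%), with 3 higher on side 2 (0.0856%) and 2 higher on side 1 (0.0571%). It held for 497 of 2922 genes in mouse 33 (17%), with 208 higher on side 2 (7.12%) and 289 on side 1 (9.89%), and for 314 of 3460 genes in mouse 34 (9.08%), with 227 higher on side 2 (6.56%) and 87 on side 1 (2.51%). The median log2 ratio over all these genes was 0.01, 0.00 and 0.06. At 4-fold, mouse 27 had no gene either way, mouse 33 had 10 higher on side 2 and 22 on side 1, and mouse 34 had 10 and 7. With each gene taken without its highest cell on either side, chosen after seeing the data, the counts were 5, 489 and 290. Cells of a smaller side carry more counting error, and the 100 and 154 cells of side 2 in mice 33 and 34 are fewer than the 351 of mouse 27.

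**Figure D2:**
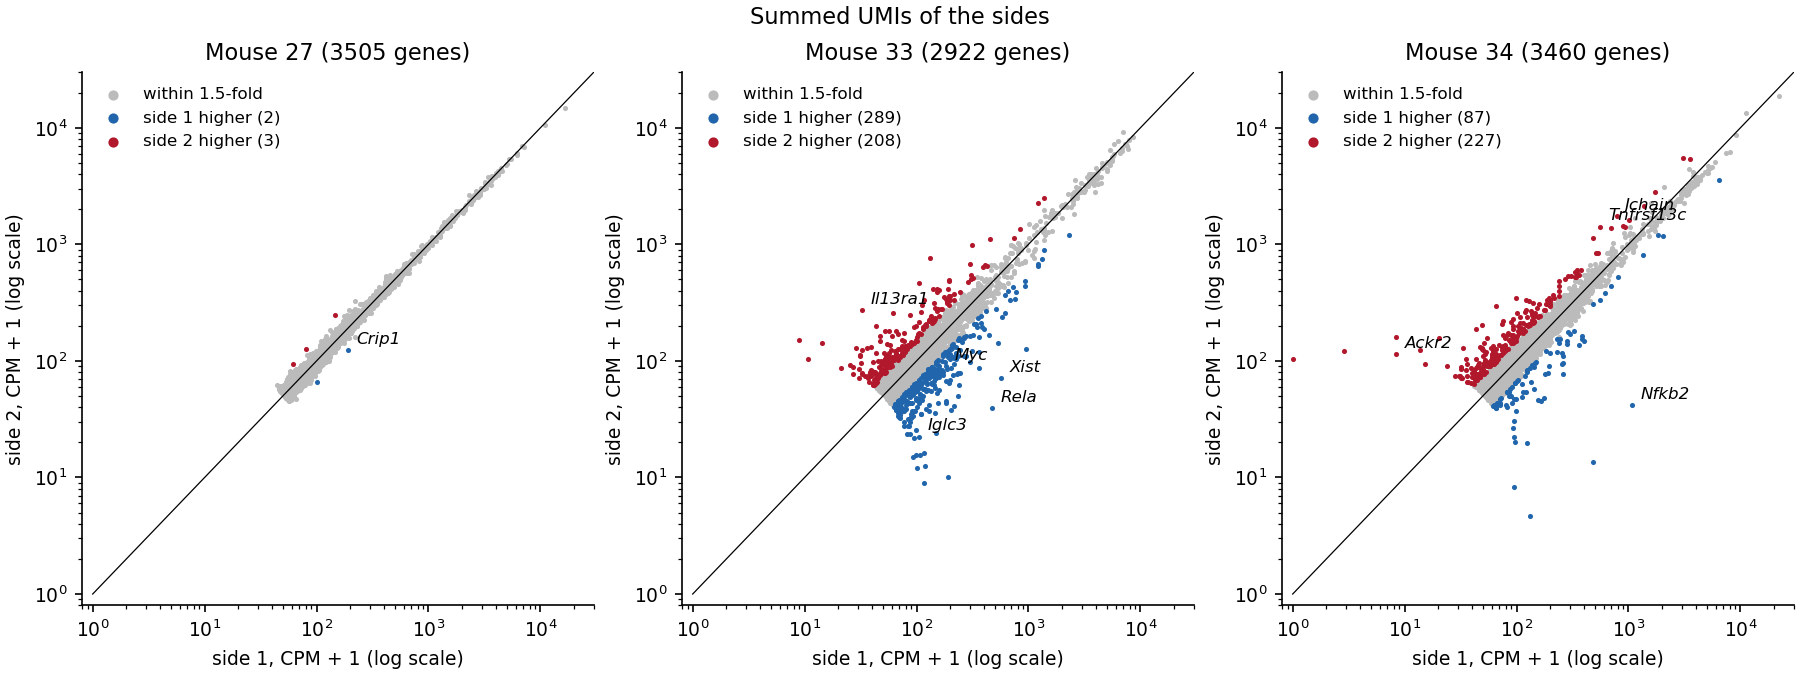
Level of each gene with a mean of at least 50 CPM on side 1 (x axis) and side 2 (y axis) of the 3 nodules, as CPM + 1 of the summed UMIs on log scales; red genes are at least 1.5-fold higher on side 2, blue ones on side 1. In mouse 27 the genes lie along the diagonal with 5 coloured points, while Rela and Xist in mouse 33 and Nfkb2 in mouse 34 lie far below it.

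Nearest neighbours in expression were mixed between the sides in mouse 27. In mice 33 and 34, side-2 cells had side-2 neighbours far above the side-2 share of cells. Around a side-2 cell, 35.6% of the 15 nearest cells were of side 2 in mouse 27, where side 2 was 31% of the cells. It was 68.5% in mouse 33, where side 2 was 27%, and 55.0% in mouse 34, where it was 17.3%. Around side-1 cells the shares were 28.6%, 9.69% and 2.98%. Leaving out immunoglobulin and proliferation genes gave 35.7%, 68.0% and 54.4% around side-2 cells. With 30 neighbours these shares were 34.4%, 61.5% and 47.4%, so side-2 cells were then not the majority around side-2 cells of mouse 34.

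**Figure D3:**
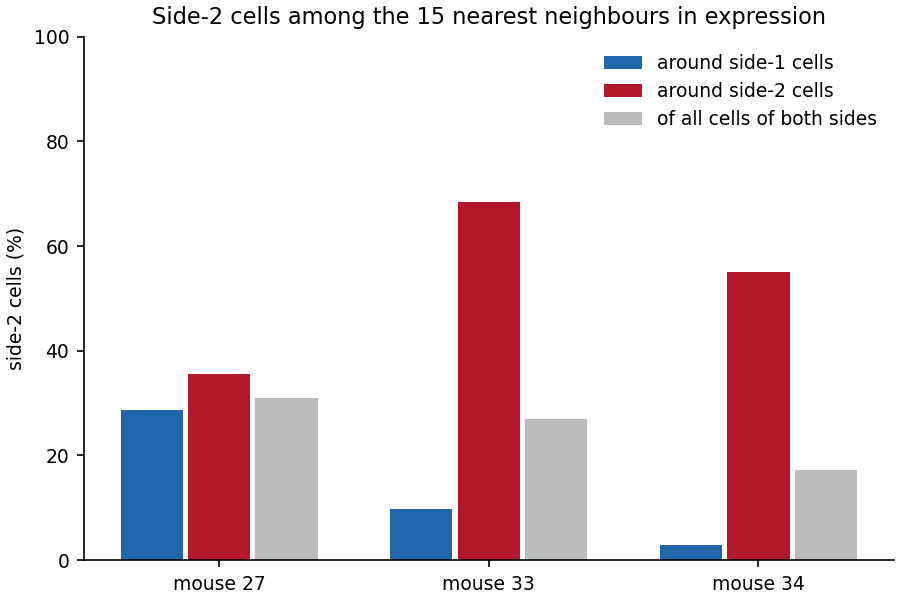
Share of side-2 cells (y axis, percent) among the 15 nearest neighbours of side-1 cells (blue) and of side-2 cells (red), beside their share of all cells of both sides (grey), in each nodule. The red and blue bars are close in mouse 27 (35.6% and 28.6%) and far apart in mouse 33 (68.5% and 9.69%) and mouse 34 (55.0% and 2.98%).

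In mouse 27, the genes past 1.5-fold were Fos, Gstt1 and Hist1h2bc on side 2 and Crip1 and Lgals1 on side 1. Fos, a subunit of the AP-1 transcription factor, was at 144 CPM on side 1 and 248 CPM on side 2 (ratio 1.72, 1.57 to 1.88), and 1 cell gave 8.85% of its side-2 UMIs. Crip1, a small LIM-domain protein, was at 191 and 123 CPM. Gstt1, Hist1h2bc, Crip1 and Lgals1 are named because so few genes passed, and were chosen after their values were seen.

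The genes with the widest separation, those whose ratio interval lay farthest from 1, all had in mouse 27 a mean under 50 CPM. On side 2 they were C1qb, Ccl5, H1fx, Apoe, Lyz2, Vim, Runx2 and Plac8. C1qb, a complement gene of macrophages, was at 1.77 and 11.0 CPM with a UMI in 0.639% and 1.42% of cells, and 1 cell gave 45.9% of its side-2 UMIs. Ccl5, a chemokine of T cells and other leukocytes, was at 21.2 and 63.5 CPM, 47.7% of the latter from 1 cell. The 6 macrophage markers together were at 12.9 CPM on side 1 and 45.1 CPM on side 2, all under 50 CPM, and their part in these values was not tested. On side 1 they were Ano6, Dlgap3, Tnik, Cntnap5a, Gpm6a, Tmem176b, Dock10 and 2310067P03Rik. Ano6, a membrane scramblase, was at 13.1 and 1.19 CPM with a UMI in 8.81% and 0.570% of cells. Within side 1, the 47 cells with A239C had Ano6 at 53.3 CPM, Cntnap5a at 113 CPM and Crip1 at 512 CPM, against 10.5, 10.2 and 171 CPM in the other 736, and 275 of 3448 genes were past 1.5-fold between these 2 groups. The 49 side-1 cells with C10G, a group of like size, had 86 of 3463 genes past 1.5-fold against the rest of their side.

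In mouse 33, side 2 had less Rela and more Il13ra1 RNA. Rela, the p65 subunit of NF-κB (chr19:5637442-5648134 in the GRCm38 annotation), was at 473 CPM on side 1 and 38.5 CPM on side 2, 12.3-fold lower (9.55 to 16.0), with a UMI in 93.7% and 29% of cells. Its level was 18.3 and 17.8 CPM in mouse 27 and 21.9 and 36.3 CPM in mouse 34, so that the side-1 level of mouse 33 stood above all other sides. Il13ra1, a subunit of the receptor for IL-13 and IL-4, was at 31.8 and 272 CPM (8.55-fold, 7.04 to 10.4), with a UMI in 8.49% and 73.0% of cells. In mice 27 and 34 it was between 1.96 and 15.7 CPM on every side.

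The other genes with the widest separation on side 2 of mouse 33 were Frmd5, Gm6093, Gm15056, Rbm20, Slc44a5, Ido2 and Syt1. Frmd5, a FERM-domain protein, was at 3.27 and 96.7 CPM, in 1.48% and 10% of cells. Slc44a5, of a family of choline transporter-like proteins, was at 13.3 and 143 CPM, in 5.54% and 50% of cells. Ido2, an enzyme of tryptophan breakdown, was at 2.57 and 36.7 CPM, in 2.21% and 30% of cells. Syt1, a synaptic vesicle protein, was at 9.81 and 102 CPM, in 6.64% and 27% of cells, and Gm15056 was at 7.94 and 150 CPM with 29% of the latter from 1 cell. Il13ra1 and Slc44a5 RNA thus reached at least 50% of side-2 cells, and Frmd5 RNA 10% of them.

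On side 1 of mouse 33 the widest separation was in Wfdc21, Dyrk3, Shtn1, Rela, Depdc7, Ptpn13, Vav3 and Thsd7a. Shtn1 was at 190 and 9.18 CPM, with a UMI in 73.4% and 6% of cells. Vav3, a guanine nucleotide exchange factor of antigen receptor signalling, was at 56.1 and 3.06 CPM, in 45.4% and 3% of cells. Dyrk3, a protein kinase, was at 62.6 and 1.22 CPM, in 51.7% and 2.00% of cells, and Ptpn13, a phosphatase, at 116 and 7.95 CPM. Wfdc21 had 1 UMI on side 2 (63.3 and 0.61 CPM, ratio of side 1 over side 2 103 with an interval from 18.4 to 4101). Thsd7a had none there, and was at least 9.67-fold lower than the 17.8 CPM of side 1 when side 2 is set at the 3 UMIs that a count of 0 allows, with 7.67 as the lower limit of the ratio interval. Xist, the RNA of the inactive X chromosome, was at 569 and 70.4 CPM, in 69.0% and 19.0% of cells, and 44.3% of its side-2 UMIs came from 1 cell; it was chosen after its values were seen. In mouse 27 Xist was at 522 and 537 CPM.

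Among the gene lists, B cell identity genes were lower on side 2 of mouse 33. Of 6 B cell markers, Ms4a1 (CD20, 360 and 85.7 CPM), Pax5 (the B lineage transcription factor, 128 and 41.0 CPM) and Ebf1 (939 and 435 CPM) were past 1.5-fold, all higher on side 1, and the median log2 ratio of the list was -0.77. Cd79a (263 and 311 CPM) was not past 1.5-fold. Of 8 measured NF-κB and BAFF genes, 3 were higher on side 2, namely Rel (301 and 676 CPM), Nfkb1 (200 and 333 CPM) and Tnfaip3 (76.6 and 171 CPM), and 3 on side 1, namely Rela and the BAFF and TACI receptor genes Tnfrsf13c (441 and 166 CPM) and Tnfrsf13b (209 and 135 CPM). Their median log2 ratio was 0.17. Rel and Nfkb1 encode NF-κB subunits and Tnfaip3 the inhibitor A20, so genes of this list went both ways.

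Some survival, immediate early and folding genes were past 1.5-fold in mouse 33, where 17% of all genes were, 9.89% higher on side 1 and 7.12% on side 2, so that 1 member of a list of 8 or 10 is near the share over all genes. Of 6 measured survival and death genes, Bcl2a1b (an anti-apoptotic BCL2 relative, 216 and 40.4 CPM), Pmaip1 (115 and 71.0 CPM) and Bid (71.0 and 35.5 CPM) were higher on side 1, with a list median of -0.46. Bcl2 went the other way without passing, at 256 and 362 CPM, a ratio of 1.41. Of 8 immediate early genes, Fos, Fosb, Jun and Nr4a1 were higher on side 1, with a median of -0.52, and Jun was at 585 and 237 CPM. Of 6 genes of endoplasmic reticulum stress and folding, the chaperones Pdia4 (38.5 and 130 CPM), Hsp90b1 (451 and 1104 CPM) and Calr (303 and 550 CPM) were higher on side 2 and the transcription factor Atf4 (216 and 105 CPM) on side 1, with a median of 0.67. Myc was at 183 CPM on side 1 and 89.3 CPM on side 2, and was the 1 gene past 1.5-fold of 8 measured in its list. Cd80 and Cd40, which pass signals between B and T cells, were higher on side 1 (135 and 79.5 CPM, 117 and 66.1 CPM), 2 of 3 measured costimulation genes. Gpr183 and Cxcr5, receptors that guide B cells within lymphoid tissue, were higher on side 1 as 2 of 7 measured homing genes. Syk was 1 of 10 BCR signalling genes, at 181 and 42.2 CPM. Jchain, of 2 measured plasma cell genes, was at 126 and 55.1 CPM. No measured member was past 1.5-fold in the lists of germinal centre B genes (2 measured at a mean of 50 CPM), mutation and switching (3), MHC class II (10), interferon response (2), proliferation (5) and eIF3 subunits (13). Below that mean, and named after their values were seen, the germinal centre genes Bcl6 (67.0 and 17.7 CPM, 3.78-fold, 2.57 to 5.74) and Mef2b (50.5 and 9.18 CPM, 5.50-fold, 3.26 to 9.99) were higher on side 1, with a UMI of Bcl6 in 55.4% and 16% of cells.

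In mouse 34, side 2 had less Nfkb2 RNA. Nfkb2, whose product p100 is the precursor of the p52 subunit of non-canonical NF-κB (chr19:46300994-46312400 in the GRCm38 annotation), was at 1075 CPM on side 1 and 40.5 CPM on side 2, 26.5-fold lower (20.9 to 34.2), with a UMI in 98.0% and 31.2% of cells. In mice 27 and 33 it was between 11.6 and 48.3 CPM on every side. Psd, which overlaps the end of Nfkb2 (46312085-46328127), was at 14.6 CPM on side 1 and had no UMI on side 2, at least 8.04-fold lower at 3 UMIs, with 6.45 as the lower limit of the ratio interval. The strand setting of the counting is not given in the sources used here, so reads of these neighbours may not be told apart.

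The other genes with the widest separation on side 1 of mouse 34 were St8sia6, Nbea, Grm6, Marcks, Car2 and Ubash3b. St8sia6, a sialyltransferase, was at 131 and 3.63 CPM, with a UMI in 68.8% and 3.25% of cells. Nbea was at 85.2 and 3.03 CPM, in 58.4% and 1.95% of cells, and Grm6, a glutamate receptor, at 28.4 and 0.61 CPM, the latter being 1 UMI. Car2, a carbonic anhydrase, was at 93.3 and 7.26 CPM, in 48.5% and 5.19% of cells, and Marcks, a substrate of protein kinase C, at 77.2 and 5.45 CPM. All but Marcks and Car2 were in under 4% of side-2 cells. Ighv9-2 RNA was at 478 CPM on side 1 and 12.7 CPM on side 2, although the contigs of both sides were called IGHV9-1. V genes of this family are close copies, so the gene to which reads were counted is uncertain, and Ighv9-2 was chosen after its values were seen. Ighv9-1 itself was at 1597 and 2268 CPM.

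On side 2 of mouse 34 the widest separation was in Clu, Lyz2, Ackr2, Pglyrp1, Nuak1, Smarcd3, Dach1 and Mt3, and these were of 2 kinds. Clu (1.85 and 122 CPM), Lyz2 (7.41 and 159 CPM) and Pglyrp1 (3.59 and 52.6 CPM) came from 1 cell by 99.5%, 92.4% and 88.5% of their side-2 UMIs. The chemokine Ccl20, at 0 and 103 CPM and chosen after its values were seen, came from 1 cell alone. The 6 macrophage markers were at 26.8 CPM on side 1 and 176 CPM on side 2, and without cells that held 5 or more UMIs over the macrophage, neutrophil, lung epithelium and endothelial marker lists, an alternative chosen after seeing the data, the count of genes past 1.5-fold was 310 in place of 314. The others were spread over many cells. Ackr2, a chemokine-scavenging receptor, was at 7.41 and 114 CPM (15.4-fold, 11.6 to 20.6), with a UMI in 5.83% and 39.0% of cells. Smarcd3, a subunit of the SWI/SNF chromatin remodeller, was at 12.9 and 124 CPM, in 10.3% and 53.2% of cells. Mt3, a metallothionein, was at 19.3 and 155 CPM, in 8.40% and 45.5% of cells. Nuak1, a kinase, was at 2.18 and 32.1 CPM, and Dach1 at 1.96 and 24.2 CPM. In mouse 27 Ackr2 was at 6.85 and 6.53 CPM.

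Some plasma cell, folding and immediate early genes were past 1.5-fold higher on side 2 of mouse 34, where 6.56% of all genes were. Of 3 measured plasma cell genes, Jchain, which joins IgA dimers, was at 787 and 1747 CPM (2.22-fold, 2.12 to 2.32). Xbp1, the transcription factor of the secretory programme, was at 49.9 and 140 CPM. The other measured gene was not past 1.5-fold, and the median of the 3 was 1.15. Of the 6 genes in this list, 2 had no UMI on either side. Of 8 folding and stress genes, Hspa5 (900 and 1432 CPM), Hsp90b1 (347 and 561 CPM), Ddit3 (44.2 and 91.4 CPM) and again Xbp1, which is in both lists, were higher on side 2, with a median of 0.59. Of 9 immediate early genes, Fos (1724 and 2832 CPM), Fosb (329 and 526 CPM), Jun (937 and 1421 CPM) and Egr1 (303 and 537 CPM) were higher on side 2, with a median of 0.55. S1pr2, a receptor that keeps B cells in germinal centres, was at 29.5 and 72.6 CPM, with a UMI in 26.4% and 45.5% of cells. These list medians stand beside a median of 0.06 over all genes of this nodule.

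Of 10 measured NF-κB and BAFF genes in mouse 34, Nfkbie, an NF-κB inhibitor, was higher on side 2 (98.6 and 349 CPM), as was Tnfrsf13c, the BAFF receptor gene (557 and 1420 CPM, 2.55-fold, 2.43 to 2.68), and Nfkb2 was higher on side 1. Nfkb1 (299 and 333 CPM), Rel (503 and 508 CPM) and Relb (44.8 and 57.5 CPM) were within 1.5-fold. Tnfrsf13c was thus higher on side 2 here and on side 1 in mouse 33. H2-Ab1, a class II antigen-presentation gene, was at 1368 and 2149 CPM as 1 of 9 measured, Icam1 (59.4 and 96.8 CPM) and Cd40 (71.9 and 111 CPM) were 2 of 3 costimulation and adhesion genes, and Cd22 (104 and 171 CPM) was 1 of 9 BCR signalling genes. Itgb1 and S1pr2 were higher on side 2 and Ccr7 (71.8 and 47.2 CPM) on side 1, of 5 homing genes. Npm1, a nucleolar protein, was at 2021 and 1175 CPM as the 1 of 8 genes of the Myc list past 1.5-fold, and Pmaip1 (100 and 162 CPM) the 1 of 4 survival genes. Bcl2, with a mean below 50 CPM and so not counted, was at 11.1 and 65.9 CPM, with a UMI in 8.94% and 43.5% of cells. No measured member was past 1.5-fold in the lists of B cell markers (6 measured), interferon response (2), proliferation (9) and eIF3 subunits (13).

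In mouse 27, by contrast, Fos was the 1 member past 1.5-fold of all 25 lists. The 13 measured eIF3 subunits had a median log2 ratio of -0.05, the 9 MHC class II genes 0.05 and the 9 proliferation genes -0.06. The 10 proliferation genes summed gave ratios of side 2 over side 1 of 0.952 (0.922 to 0.982) in mouse 27, 0.892 (0.837 to 0.95) in mouse 33 and 1.06 (1.02 to 1.10) in mouse 34. With 3 nodules an exact two-sided sign-flip test of these ratios cannot go below p = 0.25. When cells rather than UMIs were weighted equally, the log2 ratio of mouse 34 went from 0.08 to -0.12.

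The V-region bases divided side 1 further in mouse 33. Its 23 cells with G171A, the base that most side-2 cells carry, had Rela at 109 CPM, Il13ra1 at 264 CPM and Xist at 155 CPM, against 516, 4.44 and 618 CPM in the 248 without it, and 627 of 2836 genes (22.1%) were past 1.5-fold between them. Groups of this size carry much counting error, and in mouse 34 splits with 23 to 25 cells gave 14.1% to 22.5%, so the count is not particular to G171A. Those splits are by V-region bases too, and T176C among them is in 98.7% of side-2 cells of mouse 34. They thus do not show what counting error alone gives. Of the 23 cells with G171A, 60.9% had a UMI of Il13ra1, against 3.63% of the 248 without it. The split by T274G gave 13 of 2945 genes (0.441%) between 145 and 126 cells, and that by T206C gave 80 of 2891 (2.77%) between 42 and 229 cells. Taken with the light chain, the 200 side-1 cells with neither G171A nor T5C had Rela at 546 CPM and Il13ra1 at 1.33 CPM, the 38 with T5C alone had 397 and 18.8 CPM, and the 21 with both had 86.9 and 272 CPM. The 31 cells with the key ranked 3 alone, which has the 42 bases of the first key but for C21T, had Rela at 64.6 CPM, Il13ra1 at 198 CPM and Xist at 48.5 CPM. So levels near those of side 2 were also found in cells whose CDR3 has the length of side 1. On side 2, the 11 cells without G171A had Rela at 166 CPM and Xist at 492 CPM, against 23.3 and 19.9 CPM in the 89 with it. Much of the side-2 Xist came from 1 cell, as given above, so the Xist level of these 11 rests on few cells. With side 1 limited to cells without G171A and side 2 to cells with it, 636 genes were past 1.5-fold in place of 497.

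In mouse 34 the barcodes with both keys parted in the same way as their contigs. The 207 whose second-key contig had the V region of side 1 had Nfkb2 at 1198 CPM and Ackr2 at 0.70 CPM, and 1 of 3360 genes (0.0298%) was past 1.5-fold between them and side 1, against 393 of 3455 (11.4%) between them and side 2. The 88 with another V region had Nfkb2 at 640 CPM, Ackr2 at 62.3 CPM, Smarcd3 at 53.4 CPM and Mt3 at 59.4 CPM, between the levels of the sides. In these 88, 87.5% had a UMI of Nfkb2 and 39.8% of Ackr2, beside 98.0% and 5.83% on side 1 and 31.2% and 39.0% on side 2. They had 67 of 3387 genes (1.98%) past 1.5-fold against side 1 and 173 of 3458 (5%) against side 2. Side 2 has 154 cells and side 1 has 738, so counts against side 2 carry more counting error. With every barcode of the second key given to side 2, 27 genes were past 1.5-fold in place of 314.

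The light-chain base gave a like gradation within side 1 of mouse 34. The 101 side-1 cells with C10A, the base of side 2, had Nfkb2 at 563 CPM, Ackr2 at 40.0 CPM and a median of 14438 UMIs. The 637 without it had 1174 CPM, 1.04 CPM and 10848 UMIs. The 23 with heavy T176C had Nfkb2 at 248 CPM and Ackr2 at 72.0 CPM. The 45 cells with the key ranked 3 alone, whose CDR3 has A14T and none of the other changes of the second key, had Nfkb2 at 29.4 CPM, no UMI of Ackr2 and Mt3 at 234 CPM. The 25 with the key ranked 4 alone, IGHV9-2 with the CDR3 of the second key, had Nfkb2 at 25.1 CPM, no UMI of Ackr2 and Bcl2 at 147 CPM. Low Nfkb2 was thus shared by side 2 and both of these keys, and high Ackr2 was not. Within side 2, the 48 cells with A253G had Ackr2 at 20.2 CPM, against 143 CPM in the 106 without it.

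**Figure D4:**
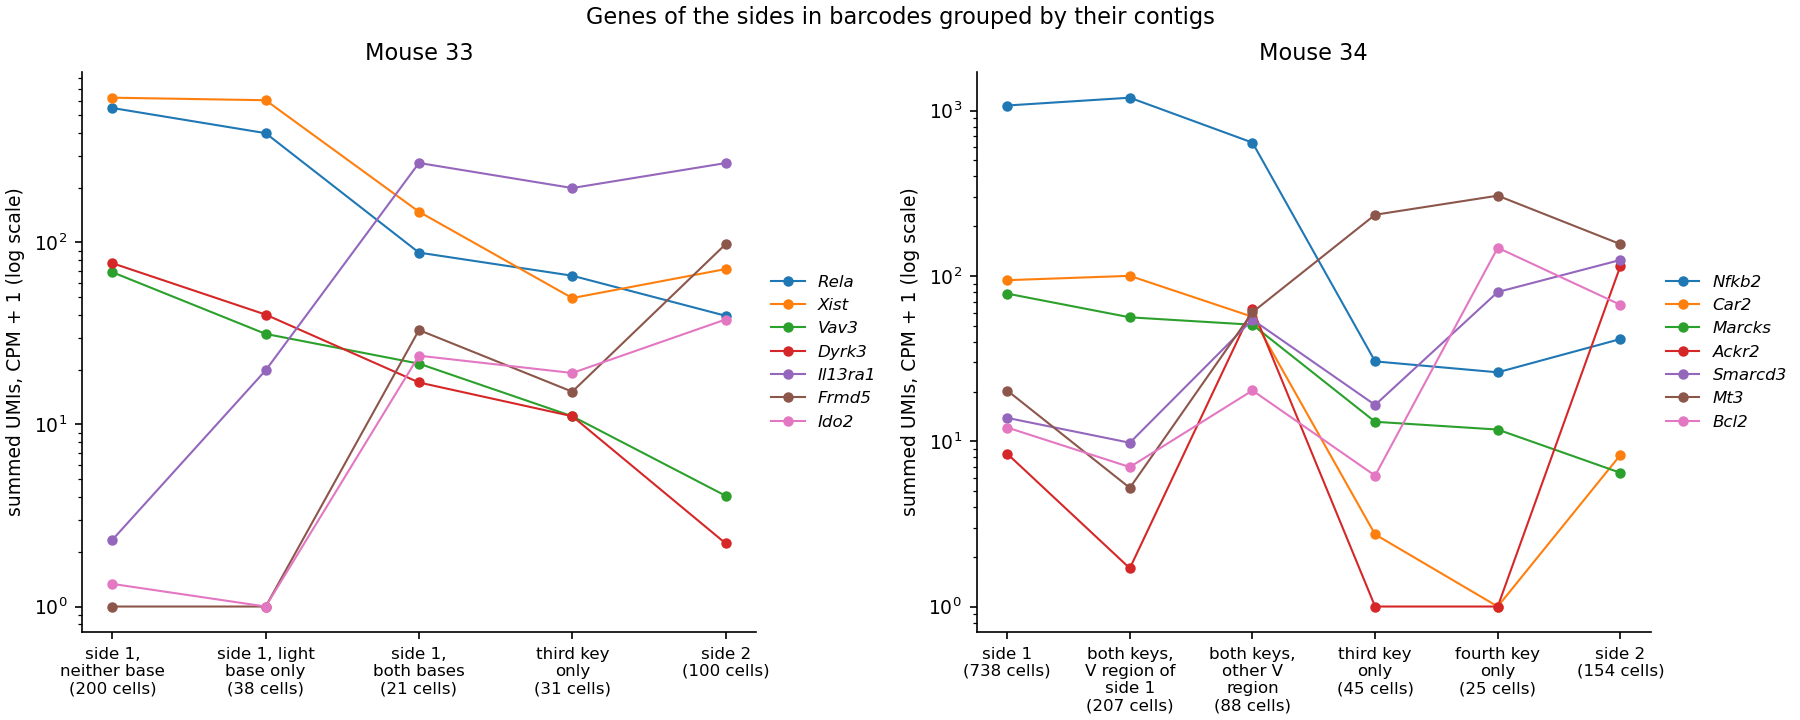
Level of named genes (y axis, CPM + 1 of summed UMIs, log scale) in barcodes grouped by their contigs (x axis, number of cells in brackets), in mouse 33 on the left, where the bases are heavy G171A and light T5C, and mouse 34 on the right; lines join the points of a gene and mark no order in time. Rela in mouse 33 goes from 546 CPM with neither base to 86.9 CPM with both, and Nfkb2 in mouse 34 is 1198 CPM in barcodes with both keys and the side-1 V region, 640 CPM in those with another V region and 40.5 CPM on side 2.

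By their median ratio, genes of chromosome 15 leaned to side 1 in mouse 33 and, by less, to side 2 in mouse 34. In mouse 33 the median log2 ratio of 125 genes on chromosome 15 was -0.35, against 0.00 over all 2852 placed genes, and 28.0% of them (35) were past 1.5-fold higher on side 1, against 9.71% of all placed genes. In mouse 34 the median of 137 genes was 0.19 against 0.06 over all 3377. There 8.76% of the chromosome 15 genes (12) were past 1.5-fold higher on side 2. This share was 6.46% over all placed genes and 10.9% on chromosome 18, so by this count chromosome 15 did not stand out. In mouse 27 the median of 133 genes was -0.09 against 0.01. The medians of the other chromosomes lay between -0.12 and 0.13 in mouse 33, between 0.01 and 0.11 in mouse 34 and between -0.02 and 0.08 in mouse 27. Myc (61985341-61990361) and Eif3e (43250040-43282736) both lie on chromosome 15. Without the genes of chromosome 15, 452 genes in mouse 33 and 300 in mouse 34 were past 1.5-fold. Whether the number of copies of this chromosome differs between the sides was not measured.

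**Figure D5:**
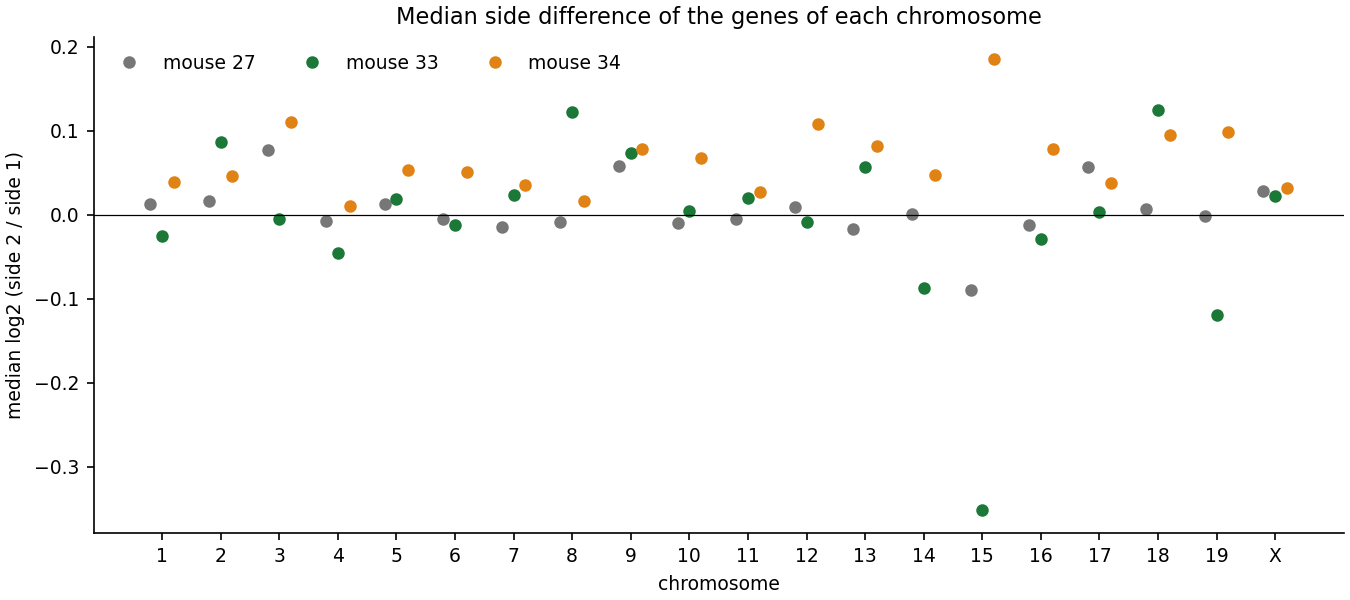
Median log2 ratio of side 2 over side 1 (y axis) of the genes with a mean of at least 50 CPM on each chromosome (x axis), immunoglobulin genes left out, in mouse 27 (grey), mouse 33 (green) and mouse 34 (orange). Chromosome 15 lies at -0.35 in mouse 33 and 0.19 in mouse 34, the farthest from 0 in both.

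No gene was shown to move the same way from side 1 to side 2 in all 3 nodules. edgeR's quasi-likelihood test on summed UMIs, with the nodule as a block and Benjamini-Hochberg adjustment, called 0 of 10266 genes (0%) at an adjusted p below 0.05, with 325 at an unadjusted p below 0.05 and a smallest adjusted p of 0.993. DESeq2's Wald test on the same sums also called 0, with 192 unadjusted. Without the filter on low counts edgeR called 178 genes, of which 129 had passed that filter, and without mouse 33 and mouse 34 it called 3 and 1. Prlr, the prolactin receptor gene, had the smallest edgeR p, with a log2 fold change of 1.48 ± 0.18 (SE) and an adjusted p of 0.993. The side numbers are given by abundance alone, so side 2 of one nodule need not correspond to side 2 of another.

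Mice 33 and 34 shared some of the genes past 1.5-fold, in every pairing of their sides. Of 2580 genes with a mean of at least 50 CPM in both, 19 were higher on side 2 of both, which is 14.1% of the 135 in mouse 33 and 13.8% of the 138 in mouse 34, against 5.35% and 5.23% of all 2580, the shares of the 138 and the 135. Between side 1 of mouse 33 and side 2 of mouse 34 it was 29 genes (12.4% of 233 and 21.0% of 138, against 5.35% and 9.03% of all), between side 2 of mouse 33 and side 1 of mouse 34 it was 7 (5.19% of 135 and 15.2% of 46, against 1.78% and 5.23%), and between the side-1 genes of both it was 13 (5.58% of 233 and 28.3% of 46, against 1.78% and 9.03%). These overlaps were not tested.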

How the data were processed

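Deposited per nodule were gene counts of UMIs per cell barcode (RNA) and contig annotations of the BCR library, made by the authors. Per the labels the builds are GRCm38 and mm10, and per the study's methods the contigs came from SeekSoulTools with IMGT genes. The aligner and annotation of the counts are not given in the sources used here. The RNA kit is described as reading the 3′ end and the V(D)J kit the 5′ end although both share barcodes, so which end the counts come from is not settled here. TCR libraries, and the nodules that the rule did not choose, were not used beyond the counts given.

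Per side, UMIs were summed over cells and scaled to CPM, with ratios and exact conditional 95% intervals (scipy 1.17.1, Python 3.11.15). Intervals cover counting error only, since cells of a side are not replicates and contig reads are not independent molecules. Named genes were, per nodule and direction, the 8 whose ratio interval lay farthest from 1, among genes with at least 50 UMIs over both sides and at least 10 cells with a UMI (V, D and J genes left out), the constant genes, and up to 4 members of each list with the highest mean CPM. Other list members past 1.5-fold are named too, and were chosen after their values were seen. The members, the 25 gene lists and the tests were chosen with earlier results of these data known. Neighbours used scanpy 1.11.5 and scikit-learn 1.9.0 (2000 variable genes, 30 principal components, 15 neighbours). Summed counts of the 6 sides were tested over nodules with edgeR 4.0.16 in R 4.3.3. The nodule was a block since both sides come from the same mouse and library, which in mouse 34 joins lung and thymus. The same fit was also run on simulated data, whose levels and dispersion were taken from these counts. DESeq2 1.42.0, other filters, folds, contig minimums and cell filters, and leaving out each nodule were tried as alternatives. No doublet caller was run. An alternative leaves out the 5% of cells with the most UMIs. Contigs were compared with the commonest side-1 contig, not with germline genes. Some genes of the lists are not reported here.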

Additional observations from a re-analysis of the deposited data

How the results depend on the processing

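Over the alternatives run, 100 values stayed within their tolerance, 20 moved beyond it and 1 reversed. The tolerance was 1.5 times for a count of genes and the 95% counting interval for most other values. For neighbour shares it was the standard deviation over single cells. By this wide limit the change from 55.0% to 47.4% with 30 neighbours in mouse 34 counted as within tolerance. Mouse 27 had no barcode with both keys, so alternatives that move such barcodes could not change its values. Genes past 1.5-fold in mouse 27 were 0 at a fold of 2, 29 at a mean of 20 CPM and 712 in the 42 and 29 cells with no UMI of the proliferation genes. In mouse 33 they were 185, 1089 and, in 42 and 27 such cells, 895. In mouse 34 they were 99, 640 and, in 87 and 24 such cells, 860, and 27 when every barcode of the second key was given to side 2. The fewer cells of the last filter carry more counting error.

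The log2 ratio of proliferation genes as a mean over cells was -0.30 in mouse 33 (summed, -0.16) and -0.12 in mouse 34 (summed, 0.08), where it was 0.024 with every second-key barcode on side 2. With that change the heavy constant log2 ratio of mouse 34 was 0.045 in place of 0.17. Ighe in mouse 33 as a share of the heavy constant UMIs had a log2 ratio of 0.051, in place of 0.47 as CPM. Of second-key barcodes in mouse 34, 58.3% held both keys when contigs needed 3 UMIs. The light-chain joint of mouse 33 was in 99.6% and 100% of cells with a light contig. The cause of these changes was not tested.

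edgeR called 178 genes without the low-count filter, 0 to 3 without 1 nodule, and 0 without the replicate block that pairs the sides of a nodule. The alternatives without top cells, without cells of other types, by key and base, and without chromosome 15 were added after seeing the data. Sides rest on 3 nodules and on 1 library each, and the 100 and 154 cells of side 2 in mice 33 and 34 limit what low genes can show.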

Other observations

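The key ranked 4 in mouse 33 was of another V-D-J joint, IGHV9-3 with IGHJ2, and the 13 cells that held it alone had Rela at 232 CPM, Il13ra1 at 61.9 CPM and Xist at 243 CPM, values that lie between those of the sides. In mouse 34, Smarcd3 was at 15.6 CPM in the 45 cells with the key ranked 3 alone and at 79.0 CPM in the 25 with the key ranked 4 alone, while Mt3 was at 234 and 305 CPM, above the 19.3 CPM of side 1 in both. Between these cells and side 1, 781 of 3409 and 665 of 3295 genes were past 1.5-fold. Against side 2 it was 663 of 3457 and 580 of 3343. These groups are small, and no test was made of them.

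Marker genes of other cell types also moved between sides in mice 33 and 34. In mouse 33 the 6 lung epithelium markers summed to 22.9 CPM on side 1 and 0.61 CPM on side 2. Of these sums Epcam made 18.9 and 0.61 CPM, and Sftpc, Sftpb and Scgb1a1 had no UMI. The 6 endothelial markers summed to 34.8 and 8.57 CPM, of which Pecam1 made 28.5 and 6.12 CPM, and Cldn5 had no UMI. The 6 macrophage markers summed to 36.9 and 23.3 CPM (ratio 0.630, 0.430 to 0.903). For C1qa, C1qb and C1qc, however, 58.1%, 72.9% and 70.3% of the side-1 UMIs came from 1 cell. The macrophage sum of side 1 thus rests largely on few cells, which its interval does not cover. The 6 T cell markers summed to 29.2 and 46.5 CPM. In mouse 34 the lung epithelium markers went the other way, at 5.88 CPM on side 1 and 38.1 CPM on side 2 (ratio 6.48, 4.43 to 9.5). Its endothelial markers were at 30.9 and 15.7 CPM (ratio 0.509, 0.327 to 0.761). Hepatocyte markers had no UMI on either side of mice 33 and 34. The part of other cells in the values of the sides was not tested.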
